A study of Arabidopsis thaliana with 6 samples.

Results

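The aquaporins of *Arabidopsis thaliana* are 35 protein-coding genes out of 27444 on the nuclear chromosomes. They were taken as the members of the PIP1, PIP2, TIP, NIP and SIP subfamilies named in the symbols and synonyms of the RefSeq gene table, and all 35 were found there. Another 3 loci whose text matched were left out: BRX and CIPK15, which carry an aquaporin name as a synonym, and AQI, an aquaporin interactor. The series profiled young leaves of Columbia-0 (Col0) plants kept in soil with 8 h of light and 16 h of darkness at 22.5 °C, without a mutant or a treatment. It holds 2 chromatin immunoprecipitation samples for trimethylation of histone H3 at lysine 4 (H3K4me3), 2 for trimethylation at lysine 27 (H3K27me3), 1 input DNA sample and 1 mRNA sample. The values used here are 1 list of enriched domains for each mark and 1 table of the mean exon depth of mRNA reads per gene. Neither form separates replicates, so no value below has a replicate error, and no difference between genes was tested.

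Aquaporins are membrane channels for water, and some members also pass small uncharged solutes such as glycerol, urea, ammonia, boric acid or carbon dioxide. PIP proteins (plasma membrane intrinsic proteins) sit in the plasma membrane, TIP proteins (tonoplast intrinsic proteins) in the vacuolar membrane, and the SIP proteins (small and basic intrinsic proteins) in the endoplasmic reticulum. NIP proteins (NOD26-like intrinsic proteins) carry metalloids and other solutes more than water. In leaves, PIP and TIP channels set how easily water crosses the cells between the veins and the stomata. H3K4me3 is a mark found at transcribed genes, and H3K27me3 is laid down by Polycomb Repressive Complex 2 at genes that are mostly silent.

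The mRNA table lists 20764 loci, the shallowest at 1.00 and the deepest at 22244, with 6.74 as the middle value. A locus that is absent from the table has no depth and is called not listed here. Exactly 1 was the lowest value and was given to 7.66% of the listed loci. Whether the mean runs over all exon bases or over bases with a read was not stated in the sources used here, so depths near 1 can stand for very few reads. The number of reads per gene is unknown. The leaf label was set against marker genes. All 7 genes of leaf photosynthesis examined (such as RBCS1A and CAB1) had depths of at least 1643. The 6 seed markers were not listed, and 2 of the 7 root markers were listed, with a highest depth of 1.99. Among the 5 pollen markers 3 were listed, up to 2.45, while the 4 guard cell markers lay between 3.67 and 12.0 and the 4 vascular markers between 11.7 and 112.

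Aquaporins were spread over different chromatin states, as were protein-coding genes in general. A mark was assigned to a gene if its domains overlapped the body by 150 bases or more. H3K4me3 was on 22 of the 35 aquaporins, 62.9% (exact Clopper-Pearson 95% interval 44.9 to 78.5, for counting error over genes only), beside 64.4% of all protein-coding genes. H3K27me3 was on 17, 48.6% (31.4 to 66.0), beside 31.0% of all protein-coding genes. Some 14 members carried H3K4me3 alone (54.2% of all genes did), 9 carried H3K27me3 alone (20.8% of all genes), 8 carried both marks (10.1%) and 4 carried neither (14.8%). The share with H3K4me3 was close to that of all genes. The share with H3K27me3 was above that of all genes, which lies just under the interval. At the minimum of 150 bases most of the excess was in genes with both marks. Members are related by descent and 2 pairs are tandem neighbours, so they are not independent draws. Requiring domains on at least 50% of the body left 12 members with H3K27me3, beside 22.1% of all genes. Counting only domains in the better-scoring part of each list, from its median score up, also left 12, beside 21.6%. It left 15 with H3K4me3, beside 36.0%. Under either of these stricter rules no member carried both marks, and the 12 had H3K27me3 alone. The share of all genes with both marks under these rules was not set beside this, so it is not a trait of the family.

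**Figure D1:**
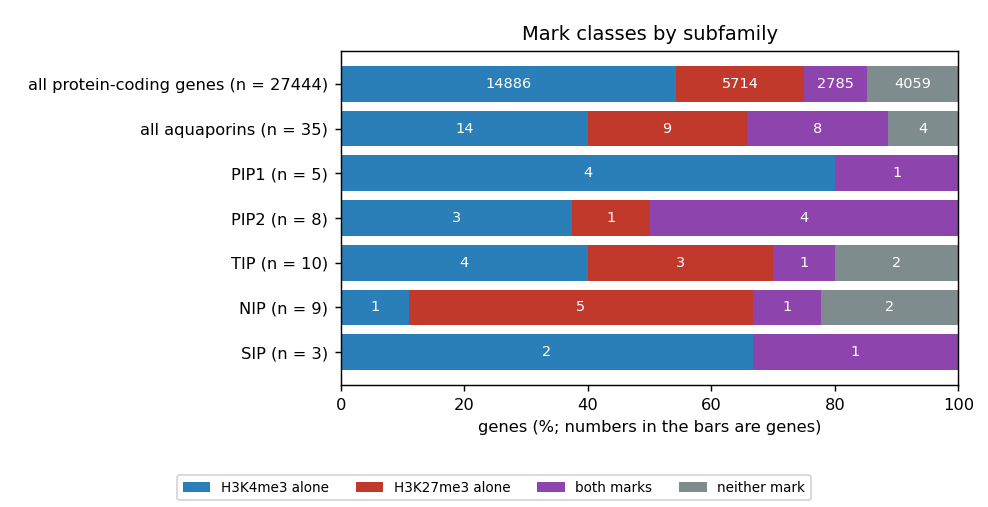
Mark classes of the aquaporins by subfamily, as a percentage of the genes in each row (horizontal axis), with the number of genes printed in each bar and all 27444 protein-coding genes in the top row. H3K4me3 alone (blue) makes up 4 of the 5 PIP1 genes, and H3K27me3 alone (red) makes up 5 of the 9 NIP genes.

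The mRNA of the family was concentrated in a few genes. Of the 35, 29 were listed (82.9%), beside 72.9% of all protein-coding genes, and 14 were in the deepest 10% of listed genes, with a depth of at least 43.3, beside 7.29% of all protein-coding genes. The summed depth of the family was 4697, which was 0.719% of the sum over all listed loci, while the 29 listed members are 0.145% of the listed protein-coding genes. The 3 deepest members held 53.5% of that sum, the 10 deepest 88.9% and the 17 deepest 99.3%. PIP genes together held 56.8%, TIP genes 40.9%, SIP genes 1.92% and NIP genes 0.398%. The median depth of all 35, with unlisted genes at 0, was 7.92, but few members were near it: 17 had depths over 10, and 13 of these were above 100. The median became 40.2 among listed members. In whole leaves, fewer cells of a type and less RNA per cell cannot be told apart.

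**Figure D2:**
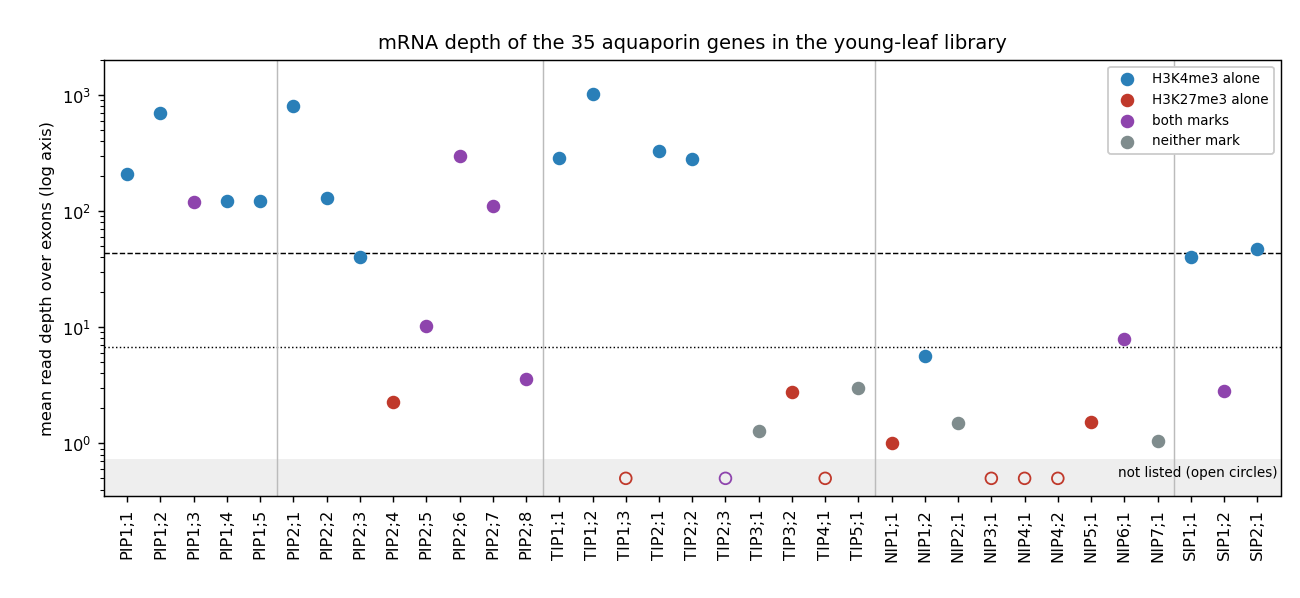
Mean read depth over exons of each aquaporin (vertical log axis) in the single mRNA library, coloured by mark class, with open circles in the grey band for genes that were not listed. The dashed line is the depth of 43.3 above which the deepest 10% of listed genes lie, and the dotted line the median of 6.74. The 5 PIP1 genes lie between 120.3 and 696, and all 9 NIP genes lie under 8.

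The PIP1 subfamily was the most uniform. Its 5 genes were all among the deepest 10% and all carried H3K4me3. PIP1;2 (AT2G45960), which has been tied to water and carbon dioxide transport in leaves, stood highest with a depth of 696, the 100th deepest of all protein-coding genes. A domain of 1500 bases covered 78.9% of its body, on chromosome 2 from 18910351 to 18911850 (TAIR10), with a score above 99.0% of the H3K4me3 domains. PIP1;1 (AT3G61430) followed at 209, with 1650 bases or 76.7% of the body under H3K4me3. The remaining members were nearly level. PIP1;5 (AT4G23400) had a depth of 122, PIP1;4 (AT4G00430), also linked to carbon dioxide transport, 121, and PIP1;3 (AT1G01620) 120.3. The first pair had 1350 bases of H3K4me3 each and no H3K27me3. The last had 1200 bases of H3K4me3 and was the single PIP1 gene with H3K27me3, on 600 bases that lay wholly within the H3K4me3 domain. That domain's score exceeded 18.9% of the H3K27me3 list, so it was among the weaker calls. Ratios of the deepest gene to the others ran from 3.33 to 5.79. PIP1 transcripts are close copies of each other, and the counting of reads that fit several copies was not stated, so reads may have been shifted between them.

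The PIP2 subfamily spanned the widest range of the plasma membrane genes. PIP2 proteins conduct water efficiently by themselves and also help PIP1 proteins to reach the plasma membrane. Depths ran from 2.27 to 807 over its 8 members, and the members fell into 3 mark classes. PIP2;1 (AT3G53420), a channel of guard cells and roots that is phosphorylated by the kinase OST1, had a depth of 807, the 91st deepest gene. H3K4me3 covered 2078 bases of its body, 92.0%, the largest number of H3K4me3 bases in the family, and its domain was 2250 bases wide. PIP2;6 (AT2G39010), known from the veins of rosette leaves, came next at 299. It had 1200 bases of H3K4me3 and 600 bases of H3K27me3. PIP2;7 (AT4G35100), at 110.1, likewise had 1500 bases of H3K4me3 with 600 bases of H3K27me3 inside them.

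PIP2;2 (AT2G37170) and PIP2;3 (AT2G37180, known as RD28 for its response to desiccation) are direct neighbours on chromosome 2 and near-identical copies. The former had a depth of 129 and the latter 39.8, which placed it just under the deepest 10%. Each had its own H3K4me3 domain, of 900 bases (15613951 to 15614850) and 1050 bases (15617701 to 15618750), and neither had H3K27me3. Domain scores were ordinary here, above 44.7% and 55.7% of the H3K4me3 list. How reads that fit both copies were divided was not stated.

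The 3 shallowest PIP2 genes all carried H3K27me3, as did the much deeper pair described above. PIP2;5 (AT3G54820) had a depth of 10.3, and both marks were called on exactly the same 600 bases of chromosome 3, from 20302201 to 20302800. PIP2;8 (AT2G16850) had a depth of 3.59. Domains of 1200 and 300 bases placed 68.9% of its body under H3K27me3, and a single H3K4me3 domain of 150 bases lay inside the larger one. Its H3K4me3 call rests on the minimum of 150 bases and was lost when domains of that narrowest width were left out. PIP2;4 (AT5G60660), a gene known mainly from roots, had the lowest depth of the subfamily at 2.27 and H3K27me3 alone, on 1200 bases or 65.3% of the body.

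TIP genes were either very deep or nearly absent. Their median of 2.90, with unlisted genes at 0, lay between a pair of shallow members and far from the deep ones. It was 282 among the 7 listed members and 141 without the 4 that overlap another annotated gene. TIP1;2 (AT3G26520) was the deepest aquaporin at 1012, the 72nd deepest of all protein-coding genes, and by itself 21.5% of the summed family depth. A domain of 1200 bases covered 82.1% of its body. TIP2;1 (AT3G16240), known as DELTA-TIP and able to pass ammonia and urea, had a depth of 329.5 with 1500 bases of H3K4me3. It shares 120 bases with PnsB3, a subunit gene of the chloroplast NDH complex with a depth of 36.8, and the same domain touched both. TIP1;1 (AT2G36830), known as GAMMA-TIP, had a depth of 288, and TIP2;2 (AT4G17340) had 282. Each had 900 bases of H3K4me3 and no H3K27me3.

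The other 6 TIP genes had depths of at most 3, and 3 of them were not listed. TIP2;3 (AT5G47450), a root gene, was not listed. H3K27me3 covered 87.3% of its body, and 300 bases of H3K4me3 lay inside that domain. TIP4;1 (AT2G25810), also a root gene, lay wholly under a domain of 2100 bases on chromosome 2 (11012401 to 11014500) and was not listed. TIP1;3 (AT4G01470), a pollen gene, was not listed and had H3K27me3 on 600 bases, 54.5% of the body. That domain scored below the median of its list. TIP5;1 (AT3G47440), likewise of pollen, carried neither mark and had a depth of exactly 3. It shares 91 bases with NOA1, which had a depth of 19.0.

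The seed pair differed in its chromatin. TIP3;1 (AT1G73190) and TIP3;2 (AT1G17810), known as ALPHA-TIP and BETA-TIP, are channels of the storage vacuoles of seeds. The first had a depth of 1.29 and neither mark, while the second had a depth of 2.79 with 1376 bases of H3K27me3, 85.8% of its body. Both share bases with a neighbouring protein-coding gene that carried H3K4me3 alone. The neighbour of the former had a depth of 10.5 and shared 290 bases, and that of the latter a depth of 6.05 and shared 91 bases. Whether counting used strand was not stated, so reads in the shared bases cannot be assigned.

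**Figure D3:**
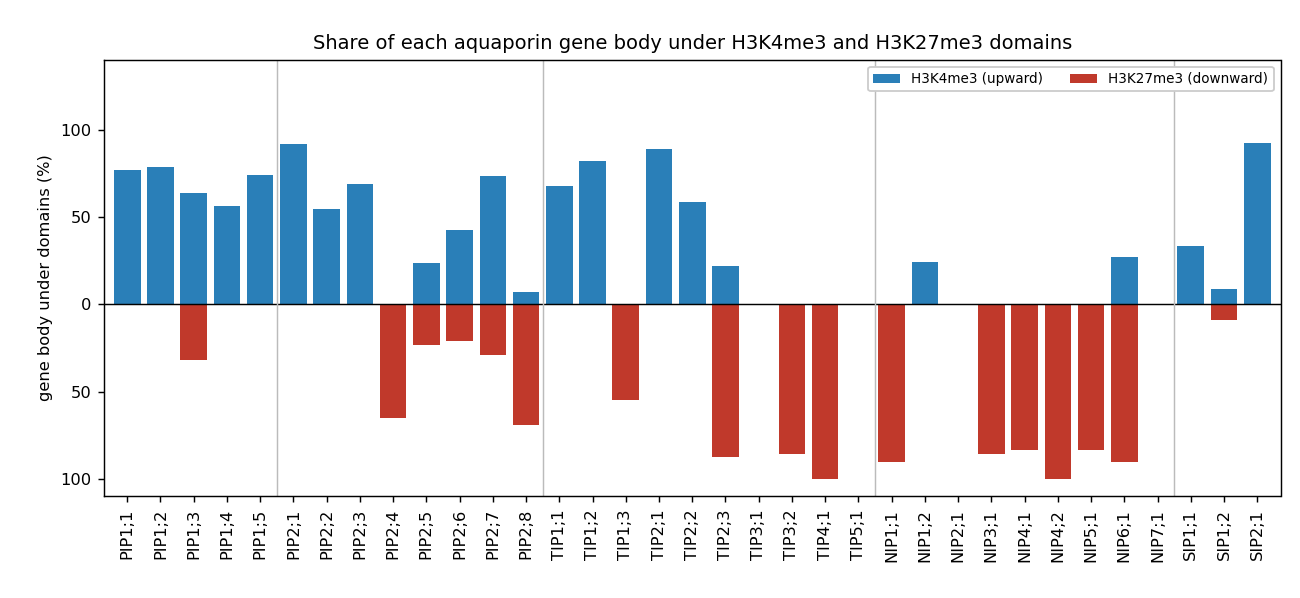
Share of each aquaporin gene body under H3K4me3 domains (blue, upward) and under H3K27me3 domains (red, downward), both in percent. The PIP1 genes have 56.3% to 78.9% under H3K4me3, and 6 of the 9 NIP genes have 83.2% to 100% under H3K27me3.

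NIP genes were low throughout, and most lay under H3K27me3. Of the 9 members 6 carried H3K27me3, 5 of them alone, and 2 carried H3K4me3. The 6 with H3K27me3 had a median of 87.9% of the body under it, beside 74.7% over all genes with that mark. No NIP gene was among the deepest 10%, where 7.29% of all protein-coding genes lay, and the highest depth was 7.92. That value belonged to NIP6;1 (AT1G80760), a boric acid channel that brings boron to growing shoots through the phloem. It carried both marks, H3K27me3 on 90.3% and H3K4me3 on 26.9% of the body, and the 450 bases of H3K4me3 lay wholly under H3K27me3. It shares 26 bases with a protein-coding neighbour of depth 16.4. NIP1;2 (AT4G18910) was the other NIP gene with H3K4me3, on 600 bases, and had a depth of 5.69.

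The NIP genes with H3K27me3 alone were barely detected. NIP5;1 (AT4G10380), the boric acid importer of roots, had a depth of 1.52. Domains of 2700 and 900 bases covered 83.6% of its body, and the wider one, on chromosome 4 from 6431101 to 6433800, scored above 95.1% of the H3K27me3 list, the highest rank in the family. NIP1;1 (AT4G19030), which passes arsenite into roots, had a depth of exactly 1 and 90.5% of the body under H3K27me3. NIP3;1 (AT1G31885), also an arsenite channel, was not listed and had 85.5%. The pollen genes NIP4;1 (AT5G37810) and NIP4;2 (AT5G37820) are tandem neighbours on chromosome 5, and neither was listed. H3K27me3 covered 83.2% of the first in 2 domains of 1800 and 1500 bases, and the whole of the second in a separate domain of 1800 bases (15049801 to 15051600).

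The remaining NIP genes carried neither mark. NIP2;1 (AT2G34390), a root gene of the response to low oxygen, had a depth of exactly 1.5. NIP7;1 (AT3G06100), a boric acid channel of anthers, had a depth of 1.06 and was the single markless aquaporin that overlaps no other annotated gene. The other 3, including the markless TIP genes, all share bases with a neighbour that carried H3K4me3 alone and had a depth of 3.35 to 19.0.

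SIP genes fell into a deeper pair and a shallow gene. SIP2;1 (AT3G56950) had a depth of 47.0, within the deepest 10% of listed genes, and SIP1;1 (AT3G04090) had 40.2, just under that limit. Both carried H3K4me3 alone, while SIP1;2 (AT5G18290) had 2.80 with 300 bases of each mark. In the last the marks shared no base. Its H3K27me3 domain also touched the neighbour NAC088, with which it shares 444 bases, and both of its domains scored under the median of their lists. The H3K4me3 domain over SIP2;1 was the strongest that touched any aquaporin, 3300 bases with a score above 99.97% of the list (chromosome 3, 21076501 to 21079800). It is shared with CRD1, a chlorophyll synthesis gene with a depth of 1726 that overlaps this SIP gene by 147 bases. How much of the mark and of the depth belongs to each gene cannot be told apart.

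In most of the 8 genes with both marks, only 1 mark had domains from the median score of its list up. Which mark it was went with depth. With only domains from the median score up, none of the 8 kept both marks. H3K4me3 alone remained on PIP1;3, PIP2;6 and PIP2;7, whose depths were 110.1 to 299. H3K27me3 alone remained on PIP2;5, PIP2;8, TIP2;3 and NIP6;1, which were not listed or had depths up to 10.3. For PIP2;5 it remained narrowly, with a score above 51.5% of the H3K27me3 list. Neither mark remained on the SIP gene, at 2.80. In the former 3 the H3K27me3 domains were all 600 bases wide, with scores above 18.9% to 34.6% of the list. Of the 9 members with H3K27me3 alone 8 kept it, the exception being the pollen gene of the TIP1 group. In 7 of the 8 genes the marks shared at least 150 bases. None of these counts was set beside the same count over all genes of the class, so they describe the members only. Whether both marks sit on the same nucleosomes or in different cells of the leaf was not tested.

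**Figure D4:**
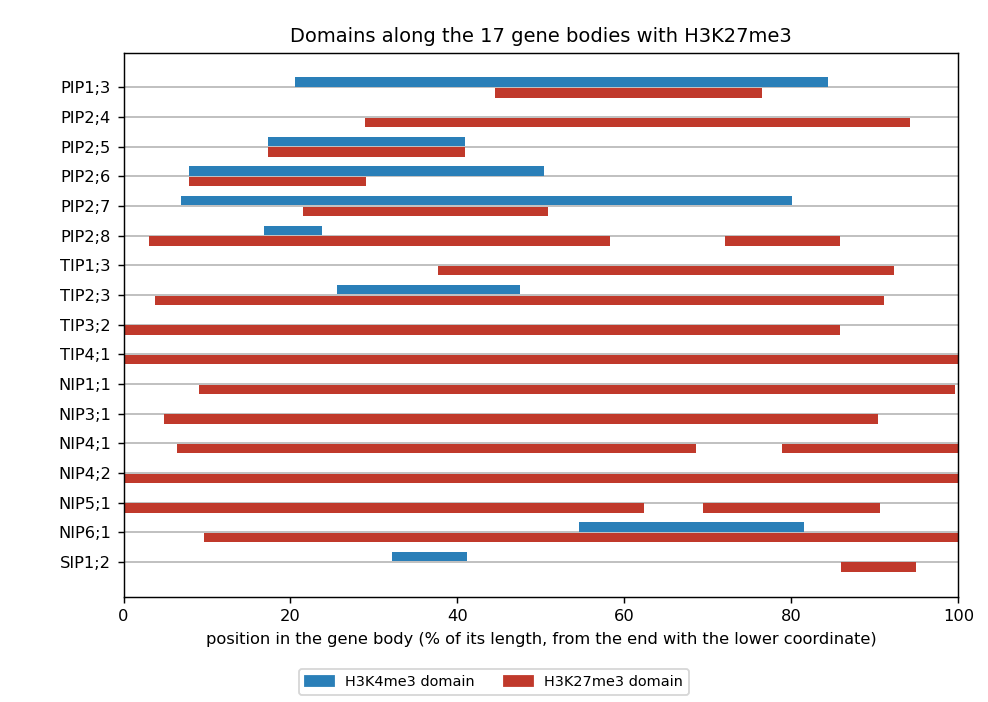
Domains of H3K4me3 (blue) and H3K27me3 (red) along the 17 aquaporin gene bodies with H3K27me3, as a percentage of the body length (horizontal axis) from the end with the lower coordinate, whatever the direction of transcription. H3K27me3 spans 83.2% to 100% of the TIP and NIP bodies in the plot other than TIP1;3, but 21.3% to 31.9% of PIP1;3, PIP2;6 and PIP2;7, where it lies within a wider H3K4me3 domain.

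More H3K4me3 went with deeper mRNA within the family. Between the bases under H3K4me3 and depth, Spearman's rho across the 35 genes was 0.87, beside 0.76 across all protein-coding genes, and 0.70 across the 22 aquaporins with that mark, beside 0.45. For H3K27me3 it was -0.63 across the 35, beside -0.47. These are descriptions across genes of 1 library, which are not replicates. Every aquaporin of the deepest 10% carried H3K4me3 (98.1% of all genes of that depth did), with a median of 1350 bases or 73.6% of the body, beside 900 bases and 52.1% for all genes of that depth. Their bodies were a little shorter, with a median of 1854 bases beside 2007. H3K27me3 was on 3 of these 14, 21.4%, beside 14.0% of all genes of that depth. At the other end, all 6 unlisted aquaporins carried H3K27me3, beside 64.6% of all unlisted protein-coding genes.

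**Figure D5:**
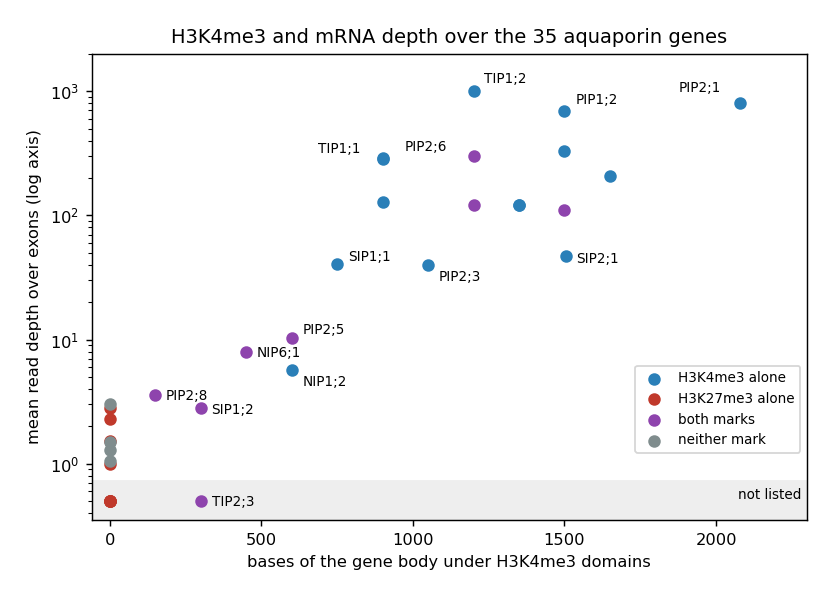
Bases of the gene body under H3K4me3 domains (horizontal axis) against mean read depth over exons (vertical log axis) for the 35 aquaporins, coloured by mark class, with genes that were not listed in the grey band. All members with 750 bases or more lie at depths of 39.8 or above, and all members under 750 bases lie at 10.3 or below.

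Set against genes of the same class, most aquaporins with H3K4me3 alone were deep. Depth over the 14 with H3K4me3 alone had its median at 169 (range 5.69 to 1012), beside 8.93 for all genes of that class, and 13 of the 14 lay above it. The 9 with H3K27me3 alone ranged from not listed to 2.79, and both they and their class had a median of 0. Of these 9, 4 were listed, beside 26.0% of all genes of that class. Mean log2(depth + 1) was 7.24 ± 1.99 (SD over 14 genes) with H3K4me3 alone and 0.66 ± 0.83 (SD over 9 genes) with H3K27me3 alone. The difference of 6.58 compares with 3.07 over all protein-coding genes. The 8 with both marks had a median of 9.11, beside 2.36 for all such genes, and ranged from not listed to 299.

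Close relatives were not always in the same state. Of the 8 numbered groups with more than 1 gene (PIP1, PIP2, TIP1, TIP2, TIP3, NIP1, NIP4 and SIP1), 7 held genes of more than 1 mark class, and the NIP4 tandem pair was the exception. This count was not compared with other gene families or with genes grouped at random. Under the stricter coverage or score rule all PIP1 genes had H3K4me3 alone. Both SIP1 genes had neither mark under the coverage rule. PIP2, TIP1, TIP2, TIP3 and NIP1 stayed mixed under both rules. In TIP1 and TIP2, genes at depths of 282 to 1012 with H3K4me3 alone stood beside a gene that was not listed and carried H3K27me3. In PIP2 the deepest gene exceeded the shallowest 355-fold, but the latter had a depth of 2.27, which may stand for few reads. In SIP1 the ratio was 14.4 and in NIP1 5.69, with the shallower gene of NIP1 at the lowest depth of any listed locus.

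Members were also grouped by the organ in which general knowledge places them. The grouping was written with earlier results of these data in view and is a description. Of the 15 genes known mainly from seeds, pollen or anthers, or roots, 10 carried H3K27me3 (66.7%) and 3 carried H3K4me3 (20%). Their median depth was 1.06. Of the 20 others 7 carried H3K27me3 (35%) and 19 carried H3K4me3 (95%), with a median of 120.8. Among all protein-coding genes 31.0% carried H3K27me3 and 64.4% carried H3K4me3, with a median of 3.41. The 35% among the others was thus close to the share of all genes. The 5 pollen or anther genes had depths of at most 3, with 3 under H3K27me3 alone and 2 with neither mark. Of the 8 root genes TIP2;2 stood highest at 282, and the next was at 10.3. Among the 20 others NIP5;1, placed there although its known role is in roots, was the single gene without H3K4me3. Of the 20 H3K27me3 domains that touched a member 1 touched another protein-coding gene, beside the 6.57% of all H3K27me3 domains on protein-coding genes that touched more than 1. Neighbours carried H3K27me3 in 12 of 32 cases beside members with that mark and in 8 of 34 beside the others, tandem partners left out. These shares, 37.5% and 23.5%, lie on either side of the 31.0% of all protein-coding genes.

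Genes that work with the aquaporins were listed from general knowledge. For every list below, the comparison is all protein-coding genes. Of these 54.2% had H3K4me3 alone, 20.8% H3K27me3 alone, 10.1% both marks and 14.8% neither. Among 11 plasma membrane H+-ATPases, the pumps that energise the membrane where PIP channels sit, 4 had H3K4me3 alone, 2 H3K27me3 alone, 1 both and 4 neither. The deepest were AHA1 at 93.9 and AHA3 at 59.1, the latter with neither mark. AHA6 was not listed and AHA9 had a depth of exactly 1, and both carried H3K27me3 alone. AHA4, with both marks, had a depth of 1.63. The 3 tonoplast pump genes all carried H3K4me3, beside 64.4% of all protein-coding genes. AVP1, the vacuolar pyrophosphatase, had a depth of 246.5 and both marks, VHA-a3 60.5 and VHA-a2 17.3.

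Of 7 genes of the boron exporter family, which move boron beside the boric acid channels of the NIP group, 2 carried H3K4me3 alone, 1 H3K27me3 alone and 4 neither. BOR1, which loads boron into the xylem, had a depth of 5.37 and H3K4me3 alone, close to AT3G06450 of the same family at 5.31. BOR4, a boron efflux gene, was not listed and had 2328 bases of H3K27me3. BOR5 had 140 bases of H3K27me3, just under the minimum, and a depth of 2.21. AT4G32510, also of this family, was not listed and had neither mark. None of the 7 was among the deepest 10%, where 7.29% of all protein-coding genes lay. All 9 interactors and regulators of PIP proteins carried H3K4me3, beside 64.4% of all protein-coding genes, and 7 carried it alone, beside 54.2%. They were listed at 1.00 to 20.8, with RMA1, a membrane-anchored ubiquitin ligase, deepest, and RMA3, of the same family, next at 13.1. TSPO, which steers PIP proteins to degradation under stress, was shallowest at exactly 1 and OST1, a kinase of the drought response, next at 4.12. TSPO and SIRK1, a receptor kinase that phosphorylates PIP proteins, carried both marks.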

How the data were processed

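Per the submitters' processing notes, Bowtie, SICER and the TAIR10 build were used, with no versions or settings. The authors deposited 1 domain list per mark, with a whole-number score per domain of unstated unit, and an mRNA coverage signal, the mean read depth over exons of each gene. How replicates and input entered the calls was not stated in the sources used here. Scores rose with width (Spearman's rho 0.887 and 0.947) and served only for ranks inside a list. Domains start and end on steps of 150 bases (H3K4me3) and 300 bases (H3K27me3), and 1-based coordinates are printed.

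Gene names and bodies came from the RefSeq table of TAIR10.1, which has no strand. H3K4me3 domains overlapped its bodies best at a shift of 0 on all 5 chromosomes, among shifts of up to 5000 bases in steps of 50. No gene coordinate is printed. Overlaps were computed with Python 3.11.15, numpy 2.4.6 and pandas 2.3.3, and the code was tested on simulated data. Of 20764 listed loci, 87 were not found on the nuclear chromosomes. Members, lists and organ groups were chosen with earlier results of these data known. All 35 members are named, and of the other lists the 2 deepest, the 2 shallowest and some outside the commonest class. With 1 library no test was made. Mark minimum, score, flank, overlap, low depth and pseudocount were varied.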

Additional observations from a re-analysis of the deposited data

How the results depend on the processing

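Of 69 recomputed values over 19 results, 62 stayed within 1.5 times the reported count or difference or, for medians and percentages, within a 95% interval that is wide for groups this small. With domains required on at least 50% of the body, 14 aquaporins carried H3K4me3, 0 both marks and 9 neither. With only domains from the median score up, 0 carried both and 8 neither. Leaving out the 8 members that overlap another gene left 1 with neither mark. With depths under 2 set to 0, 22.2% of the NIP genes were listed in place of 66.7%. The median depth of all 35 was 39.8 without overlapping members. The difference in mean log2 depth between H3K4me3 alone and H3K27me3 alone, reported as 6.58, depended on the pseudocount: it was 8.66 with 0.1, and 5.75 among listed members. Within 250 bases of the body, 18 members had H3K27me3. No paired analysis was possible because the files give no value per replicate, and for the same reason no replicate could be left out. The number of reads behind each value is unknown.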
